A study of Homo sapiens with 7 samples.

Results

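INHBE, STC1, STC2, VEGFA, GDF15, FGF21, ADM2 and VLDLR encode 7 secreted factors and 1 lipoprotein receptor that cells can induce through the integrated stress response. They are 8 of the 62238 genes with exon counts in these files, found by symbol through their Ensembl identifiers. The set was selected on the measured fold changes, after INHBE, VEGFA, STC2 and VLDLR had been seen lower in these knockdown libraries, so the differences between knockdown and control given for the 8 genes are a description and carry no test. Sequencing of total RNA covered 3 cultures of MEG-01, an established megakaryoblastic leukemia cell line. In 2 of them RBM15, an RNA-binding protein that takes part in splicing and RNA methylation, was knocked down.

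The control library carries no knockdown label, and the knockdown libraries come from lines expressing shRBM15#1 or shRBM15#2, different short hairpin RNAs against RBM15. All 3 cultures carried lentiviral transgenes, were at passage 5, grew in RPMI-1640 with fetal bovine serum and were harvested in exponential phase. The sources used here do not name the control's transgene. Each knockdown line was a stable line selected with puromycin and gave 1 library, so the spread of every estimate comes from the 2 knockdown lines. A difference between this control culture and other control cultures cannot be told apart from the knockdown.

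The integrated stress response starts when a kinase phosphorylates the initiation factor eIF2α, which slows translation in general and favours translation of the transcription factor ATF4. ATF4 and its partners raise genes for amino acid supply and redox balance, and also a group of secreted proteins through which stressed cells signal to their surroundings. VEGFA and the stanniocalcins also respond to low oxygen, and GDF15 is a target of p53. Megakaryocytes pack VEGFA into platelet granules.

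Counts on exon bins, the non-overlapping pieces into which the exons of a gene are cut, came to between 41629454 and 53230029 per library. Reads in no bin made up 21.6% of all counts in the control culture, 30.4% after shRBM15#1 and 21.9% after shRBM15#2. A read that spans several bins can count in each, so these are shares of counts and not of reads. RBM15 had 3970 reads in the control culture, 1957 after shRBM15#1 and 2121 after shRBM15#2, and its log2 fold change was -0.93 ± 0.23 (SE). With edgeR's quasi-likelihood test its adjusted p was 0.0908. Among defining genes of megakaryocytes and erythroid cells, 8 of 11 had a CPM (reads per 1e6 reads of the TMM-scaled library) of at least 1 in every library, while PF4 and GP9 were among those below it.

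VEGFA, INHBE and STC2 were abundant in the control culture and far lower in both knockdown lines, INHBE most of all. GDF15, VLDLR and ADM2 lay at moderate or low levels and were also lower in both lines. STC1 was the exception, low in the control and higher in both lines, and FGF21 was at a few reads throughout. Of the 8 genes, 7 passed the minimum of 30 reads summed over the libraries, and FGF21 did not.

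**Figure D1:**
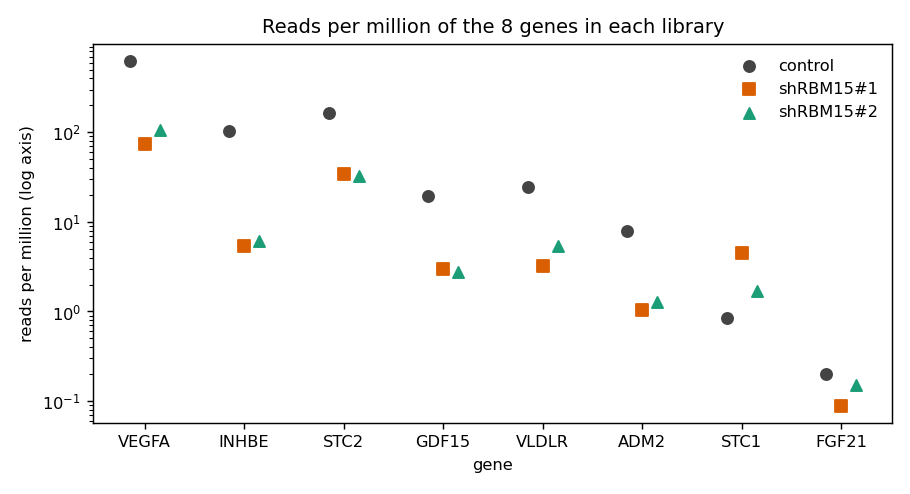
CPM (log axis) of the 8 genes, ordered from the highest to the lowest control level per length; each point is 1 library, with the control as circles, shRBM15#1 as squares and shRBM15#2 as triangles. The control point is the highest for every gene but STC1, whose control point, at 0.848, is the lowest.

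Levels can be compared between genes only per length, here as RPKM, the reads per kilobase of exon bins scaled to the library's total on bins, without TMM. In the control the order was VEGFA at 40.1 RPKM, INHBE at 31.9, STC2 at 24.9, GDF15 at 8.71, VLDLR at 6.01, ADM2 at 1.71, STC1 at 0.190 and FGF21 at 0.143. VEGFA stood above 94.8% of all genes tested, ADM2 above 54.0%, STC1 above 24.4% and FGF21 above 21.4%. With a single control library, neighbours in this order have no replicate spread to set their distance against.

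In the knockdown lines the order changed. STC2 had 6.00 RPKM after shRBM15#1 and 5.30 after shRBM15#2, and VEGFA had 5.48 and 7.35, so these genes changed places between the lines and neither ranked first in both. INHBE, second in the control culture, came to 1.93 and 2.01 RPKM. GDF15 (1.53 and 1.33) and VLDLR (0.925 and 1.42) also changed places between the lines, so their order is not set. The length of VEGFA includes intron bins of retained-intron transcripts, which lowers its level per length. Its many short adjoining bins act the other way, since a read that spans several bins can count in each. Bin 34 of VEGFA, for instance, has 2 bases and had 813 reads in the control culture. The place of VEGFA above INHBE in the control order is therefore not set.

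INHBE encodes the inhibin beta E chain, whose dimer is activin E, a ligand of the transforming growth factor beta family made mainly by the liver. The gene (ENSG00000139269) lies on chromosome 12 from 57846106 to 57853063 on the plus strand of GRCh37, the build of all gene positions here. It had 5125 reads in the control culture, 242 after shRBM15#1 and 318 after shRBM15#2, equal to 103, 5.39 and 6.08 CPM. Both knockdown libraries were far below the control and close to each other. The log2 fold change was -4.17 ± 0.25 (SE). It was -4.25 in the first line and -4.09 in the second, the largest difference of the 8 genes in each.

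VEGFA, vascular endothelial growth factor A, drives the growth of blood vessels. The gene (ENSG00000112715) lies on chromosome 6 from 43737921 to 43754224 on the plus strand. It had 30838 reads in the control culture, 3292 after shRBM15#1 and 5565 after shRBM15#2, equal to 623, 73.3 and 106 CPM. Its log2 fold change was -2.79 ± 0.26, with 8.41-fold lower counts in the first line and 5.84-fold lower counts in the second. The lines differed by 0.53 on the log2 scale, while the median difference between lines over all 24887 genes tested was 0.35.

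STC2, stanniocalcin 2, is a secreted glycoprotein that inhibits the pappalysin proteases. The gene (ENSG00000113739) lies on chromosome 5 from 172741716 to 172756506 on the minus strand. It had 8124 reads in the control culture, 1530 after shRBM15#1 and 1703 after shRBM15#2, equal to 164, 34.1 and 32.6 CPM. The lines were nearly equal, at log2 fold changes of -2.25 and -2.33, and the fit over both gave -2.30 ± 0.22.

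STC1, the paralog of STC2 and also a pappalysin inhibitor, went the other way. The gene (ENSG00000159167) lies on chromosome 8 from 23699428 to 23712320 on the minus strand. It had 42 reads in the control culture, 200 after shRBM15#1 and 88 after shRBM15#2, equal to 0.848, 4.45 and 1.68 CPM. Its log2 fold change was 1.85 ± 0.65, with 2.40 in the first line and 0.99 in the second. Both lines were above the control, and the distance between the lines, 1.41, was the widest of the 7 genes tested.

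The level of STC1 moved with the summed level of genes listed as markers of other cell types. VWF, listed for endothelium with 18, 107 and 47 reads, is also a megakaryocyte gene. Of 19 such genes of T cells, B cells, granulocytes, macrophages, hepatocytes, fibroblasts and endothelium, 18 were found in the files. Their summed level was 7.99 CPM in the control culture, 21.04 after shRBM15#1 and 11.0 after shRBM15#2. The highest single value in any library was 3.17 CPM, for CD3D in the control culture, and none of the 18 was at 0 in all libraries. In 16 of the 18 the shRBM15#1 library was the highest, and in 11 the order was shRBM15#1, shRBM15#2, control, as for STC1. The shRBM15#1 library also had the largest share of counts in no bin, 30.4%, and the most bins with a read, 473473 against 410882 in the control. Their part in the difference of STC1 was not tested.

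**Figure D2:**
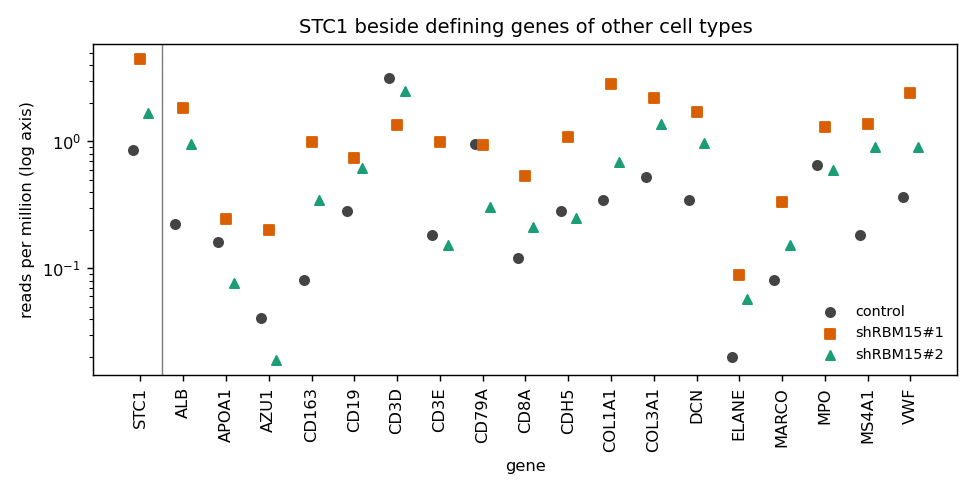
CPM (log axis) of STC1 and of 18 genes listed as markers of other cell types, right of the grey line, with each library as a point (control circles, shRBM15#1 squares, shRBM15#2 triangles). The shRBM15#1 square is the highest point for STC1 and for 16 of the 18 other genes, the exceptions being CD3D and CD79A.

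GDF15, growth differentiation factor 15, is a stress hormone that acts on the receptor GFRAL in the brainstem. The gene (ENSG00000130513) lies on chromosome 19 from 18485541 to 18499987 on the plus strand. It had 968 reads in the control culture, 133 after shRBM15#1 and 146 after shRBM15#2, equal to 19.5, 2.96 and 2.79 CPM. Its log2 fold change was -2.76 ± 0.31, and the lines, at -2.71 and -2.80, differed by 0.097.

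ADM2, adrenomedullin 2 or intermedin, is a vasodilating peptide of the calcitonin family. The gene (ENSG00000128165) lies on chromosome 22 from 50919985 to 50924869 on the plus strand. It had 389 reads in the control culture, 47 after shRBM15#1 and 67 after shRBM15#2, equal to 7.85, 1.05 and 1.28 CPM. Its log2 fold change was -2.75 ± 0.38, with -2.89 and -2.61 in the lines.

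VLDLR, the very low density lipoprotein receptor, takes up triglyceride-rich lipoproteins and also binds reelin. The gene (ENSG00000147852) lies on chromosome 9 from 2621834 to 2654480 on the plus strand. It had 1205 reads in the control culture, 145 after shRBM15#1 and 280 after shRBM15#2, equal to 24.3, 3.23 and 5.36 CPM. Its log2 fold change was -2.50 ± 0.35. The first line was lower, at -2.90 against -2.18, a distance of 0.72 that was the second widest after STC1.

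FGF21, fibroblast growth factor 21, is a hormone of fasting and amino acid shortage that is made mainly by the liver. The gene (ENSG00000105550) lies on chromosome 19 from 49258816 to 49261587 on the plus strand. It had 10 reads in the control culture, 4 after shRBM15#1 and 8 after shRBM15#2, and no difference was detectable at this depth.

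**Figure D3:**
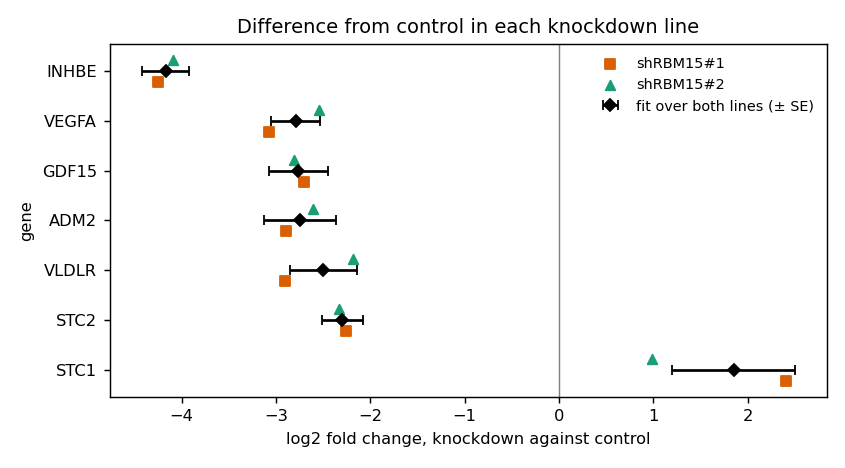
Log2 fold change of the 7 genes tested, knockdown against control, with the estimate over both lines and its standard error (diamonds with bars) and each line's own value (shRBM15#1 squares, shRBM15#2 triangles). The 6 genes left of 0 lie between -2.30 and -4.17 by the estimate over both lines, and STC1 lies at 1.85.

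The median log2 fold change of the 7 genes was -2.75, with 6 of 7 below 0, while over all genes tested the median was 0.017 and 48.9% were below 0. At an adjusted p under 0.01, the limit the authors used for expression, edgeR's quasi-likelihood test called INHBE, VEGFA, STC2 and GDF15, 4 of the 7, against 0.346% of all genes in either direction and 0.277% in the lower direction. At an adjusted p under 0.05 it called 6, ADM2 and VLDLR in addition, against 1.2% of all genes in the lower direction. Since the genes were chosen on this contrast, nothing is read from these counts. They are also sensitive to the minimum count, and no gene of any kind passed 0.01 when at least 300 reads were required.

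Exon-bin counts show whether the whole transcript or part of it was lower. The 8 genes have 123 bins, of which 86 had the 30 summed reads needed for a test. By edgeR's diffSpliceDGE, which compares the change of a bin with that of its gene, 0 of the 86 passed the limits the authors used (an unadjusted p under 0.05 with a fold larger than 1.2), 0 had an unadjusted p under 0.05 at any fold, and 0 had an adjusted p under 0.05. Over all 234192 bins tested, 1.45% passed the authors' limits and 0.0205% had an adjusted p under 0.05. The median size of a bin's relative change was 0.13 on the log2 scale for these genes and 0.15 for all bins.

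In INHBE the 6 bins with enough reads ranged from -0.26 to 0.19 in relative log2 change. The lowest was bin 3 (57849104 to 57849526), which holds the 5′ UTR and the start of the coding sequence, with 574, 17 and 35 reads. Bin 9, which holds only 3′ UTR, took 29.5% of all INHBE reads in the control culture, 31.4% after shRBM15#1 and 24.8% after shRBM15#2. Coding and untranslated parts were thus lower together.

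STC2 kept a like profile. Its bin 1, the 3′ end of this minus-strand gene, held 50.1% of the reads in the control culture, 46.9% after shRBM15#1 and 49.5% after shRBM15#2. Among its bins with at least 100 reads, the largest relative change was that of bin 12 at the other end (172755451 to 172756506), a stretch with no coding bases, at -0.41 ± 0.32 (SE). Its 160, 22 and 26 reads were 1.97%, 1.44% and 1.53% of the gene's reads. In STC1 the only bin with at least 100 reads, bin 2, had 17, 65 and 35 reads and a relative change of -0.30 ± 1.17 (SE).

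VEGFA has 44 bins because its transcripts differ in many places. Its isoforms are told apart by exons 6 and 7, which encode the heparin-binding stretches that hold the longer proteins on the cell surface and matrix. Bin 25 (43748469 to 43748522), a part of exon 6a, had 133 reads in the control culture, 13 after shRBM15#1 and 27 after shRBM15#2. Bin 29 (43749693 to 43749747), the first part of exon 7 and nearly equal in width, had 526, 57 and 97 reads.

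Of the counts on both bins added together, the share on the exon 6a bin was therefore 20.2% in the control (95% Wilson confidence interval 17.3% to 23.4%). It was 18.6% after shRBM15#1 (11.2% to 29.2%) and 21.8% after shRBM15#2 (15.4% to 29.8%). The intervals overlap. They cover counting error only and treat all counts as separate, although a read that spans both bins can count in each. The added part of exon 6, bin 27, gave shares of 14.1%, 9.52% and 11.8% against the same exon 7 bin. Its interval in the control culture, 11.5% to 17.0%, overlaps those of both lines, 4.44% to 19.3% and 7.04% to 19.2%.

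The share of the exon 7 bin against bin 38, a part of the last exon, was 32.5% in the control culture, 30.8% after shRBM15#1 and 30.7% after shRBM15#2. By these parts of the exons, the balance of VEGFA isoforms with and without the heparin-binding exons was not detectably different at this depth. The counts of the whole gene were far lower in both lines. The long 3′ UTR bin 42 kept 16.8%, 17.6% and 17.0% of the reads. Bin 14, the intron before exon 3 that a retained-intron transcript includes, took 42.3%, 43.2% and 46.0% of the counts on it and the exon 3 bin together.

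The bin of VEGFA with the largest relative change among those with at least 100 reads was bin 4 (43738519 to 43738529), 11 bases of the first exon that are coding in transcripts with an upstream start. It had 164, 8 and 19 reads and a relative log2 change of -0.78 ± 0.49. The 14-base bin 41 in the last exon had 10 reads in the control culture, 1 after shRBM15#1 and 16 after shRBM15#2, so its share was higher in 1 line only.

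**Figure D4:**
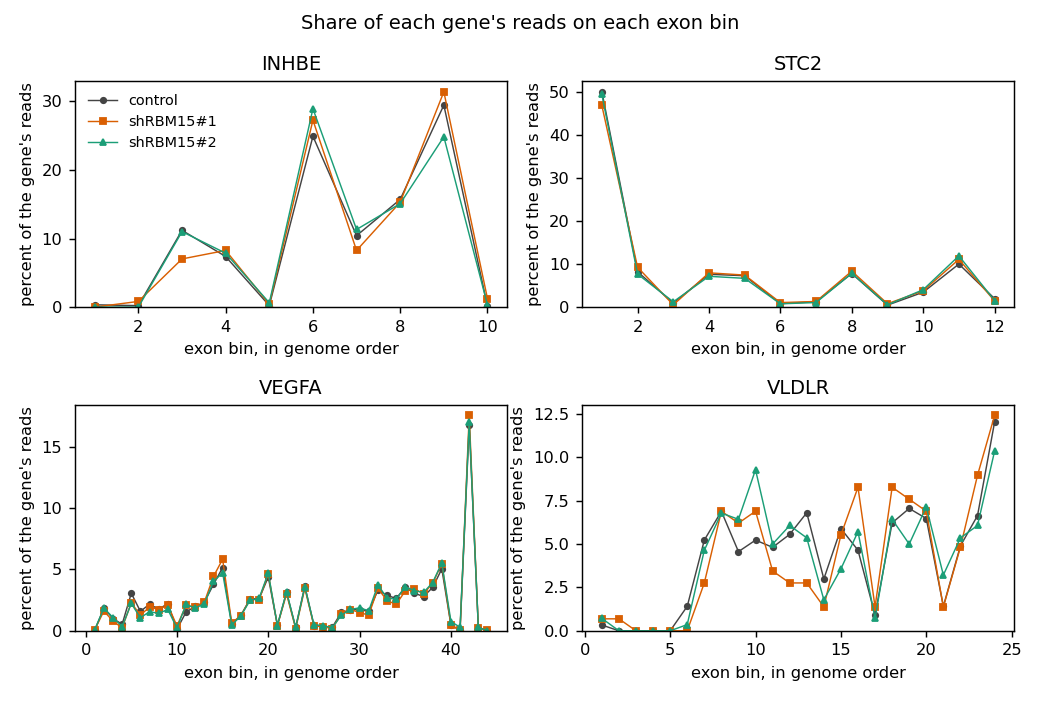
Percent of each gene's reads on each of its exon bins, in genome order, for INHBE, STC2, VEGFA and VLDLR (control circles, shRBM15#1 squares, shRBM15#2 triangles). In STC2 and VEGFA the 3 profiles nearly coincide, with 16.8% to 17.6% of VEGFA reads on bin 42, and in VLDLR, with 145 reads in the shRBM15#1 library, they scatter more.

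GDF15 had nearly all its reads on bins 8 to 12, the main transcript, 952 in the control culture, 118 after shRBM15#1 and 128 after shRBM15#2. Bins 1 to 7, upstream first exons of longer transcripts between 18485541 and 18496967, had 15, 13 and 14 reads. The upstream bins were thus as sparse in the knockdown lines as in the control culture, and their share of the gene's reads was 1.55% (0.941% to 2.54%) in the control culture, 9.77% (5.80% to 16.0%) after shRBM15#1 and 9.59% (5.80% to 15.5%) after shRBM15#2. The intervals of both lines lie above that of the control, but they cover counting error only, with 1 library each. They do not allow for reads that count in several bins. The upstream counts were few and nearly level while those of bins 8 to 12 were lower, and a difference in their use was not tested. No single upstream bin had enough reads for the test. ADM2 had 83.8%, 89.4% and 77.6% of its reads on bin 7, most of it 3′ UTR.

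In VLDLR the exon that encodes the O-linked sugar domain, a stretch outside the membrane that is skipped in some transcripts, distinguishes the main receptor isoforms. It is bin 21, coding throughout, and its length of 84 bases, or 28 codons, keeps the reading frame when it is skipped. The sequence is shown because its reads measure that choice. It is from GRCh37 at chr9:2651395-2651518 on the plus strand, with the exon in capitals and 20 bases of intron on each side, ending in ag before the exon and starting with gt after it.
VLDLR bin 21: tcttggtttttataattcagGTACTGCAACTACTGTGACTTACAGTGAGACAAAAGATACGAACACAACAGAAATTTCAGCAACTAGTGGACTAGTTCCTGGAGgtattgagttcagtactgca

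This exon had 17 reads in the control culture, 2 after shRBM15#1 and 9 after shRBM15#2. The next exon, bin 22 with 81 bases, had 59, 7 and 15, and the preceding exon, bin 20 with 147 bases, had 78, 10 and 20. Of the counts on bins 21 and 22 added together, the capitalized exon held 22.4% in the control (14.5% to 32.9%). It held 22.2% after shRBM15#1 (6.32% to 54.7%) and 37.5% after shRBM15#2 (21.2% to 57.3%). The exon thus had 28.8% of the reads of the next exon in the control, and a difference with the knockdown was not detectable at this depth. A read that spans both bins can count in each, which the intervals do not allow for. The bin of VLDLR with the largest relative change among those with at least 100 reads was bin 13, with 82, 4 and 15 reads and a change of -0.57 ± 0.49.

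Much of the 5′ end of VLDLR was not counted. Bins 3 to 5, 415 bases, had 0 reads in every library, and bins 2 to 6 overlap exons of VLDLR-AS1, an antisense gene that starts inside VLDLR. Everywhere in these files, bins that lie wholly in a bin of another gene had no reads, 13785 of 13785, against 15.02% of the bins that overlap no other gene. These zeros therefore come from how overlapping exons were counted and say nothing about the 5′ end of VLDLR. Without the overlapping bins the control level of VLDLR was 7.19 RPKM instead of 6.01.

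VLDLR-AS1 had 272 reads in the control culture, 37 after shRBM15#1 and 37 after shRBM15#2, and a log2 fold change of -2.84 ± 0.41 (adjusted p = 0.0151, edgeR). The libraries hold no strand information, so reads of the sense and antisense gene cannot be told apart where they overlap. On the bins of VLDLR-AS1 that overlap no other gene the reads were 270, 36 and 37.

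Other genes close to the 8 were looked at to see whether the whole neighbourhood was lower. Within 100 kb, 45 tested genes were found, none of them near STC1 or STC2. Of the 45, 31 were below 0, with a median log2 fold change of -0.40. None passed an adjusted p of 0.01 by edgeR, though 14 of the 45 had an unadjusted p under 0.05, against 18.8% of all genes. Around INHBE 9 of 10 were below 0, with a median of -1.07. They include INHBC, the sister gene next to it, with 75, 14 and 8 reads, and DDIT3, the stress transcription factor CHOP, at -1.75 ± 0.26 (adjusted p = 0.0154).

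FUT1, a fucosyltransferase gene at 0.169 kb from FGF21, had 508, 104 and 86 reads and a log2 fold change of -2.37 ± 0.37 (adjusted p = 0.0198). Its counts were many times those of FGF21 in every library. PGPEP1, a peptidase gene at 4.78 kb from GDF15, stood at -1.42 ± 0.26 (adjusted p = 0.0351). The 2 tested genes within 100 kb of VEGFA were MRPS18A at 82.4 kb and RSPH9 at 97.6 kb. They stood at -0.30 ± 0.28 and -0.27 ± 0.52.

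RefSeq promoter sequence (GRCh38.p14, 250 bases before to 50 after the start) was at hand for STC2, GDF15, FGF21, ADM2 and VLDLR, 5 of the 8 genes. It was searched on both strands for TGATGNAA, the letters of the element bound by ATF4 with C/EBP partners, for ACGTG, the core of the hypoxia response element, and for TGACGTCA, the cyclic AMP response element. The first was in 3.62% of all 35116 promoters, the second in 21.4% and the third in 1.85%. FGF21 alone of the 5 held the first, and none of the 5 held the others. The match is shown in capitals, on the minus strand, starting 54 bases before the start of the gene, at chr19:48755440-48755507 of GRCh38.p14, plus strand.
FGF21 promoter: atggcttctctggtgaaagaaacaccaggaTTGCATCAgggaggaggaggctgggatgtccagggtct

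The only matched promoter was thus that of the gene with the fewest reads, 10, 4 and 8. The letters not found in the windows of STC2, GDF15, ADM2 and VLDLR may lie outside them. A match is a description and not a measured site.

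The authors' list of significant RIP-seq sites holds 1515 sites in these cells. The paper defined a site by more reads after RNA immunoprecipitation with the RBM15 antibody than in control samples. None of the 1515 is annotated to any of the 8 genes by symbol, and none lies within their spans. The list holds only sites that passed the authors' filter.

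Receptors, binding partners and inhibitors of the 8 proteins were taken from a list of 25 genes, of which 21 had enough reads. Their median log2 fold change was 0.49, with 8 of 21 below 0, but it was -0.041 when at least 300 reads were required and 0.0098 with the single bin of most reads per gene. At 0.01 edgeR called 1 of these genes, against 0.346% of all genes, and DESeq2 called 2, against 2.17%. The gene called by edgeR, the pappalysin PAPPA2, fell. It had 3694 reads in the control culture, 457 after shRBM15#1 and 453 after shRBM15#2, and a log2 fold change of -2.98 ± 0.25 (adjusted p = 0.00201, edgeR). The sister protease gene PAPPA had 13, 38 and 29 reads.

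KDR, the main signalling receptor of VEGFA, had 757 reads in the control culture, 6592 after shRBM15#1 and 3978 after shRBM15#2. Its log2 fold change was 2.87 ± 0.41, with an adjusted p of 0.015 that is under 0.05 and not under 0.01. At the wider limit 0.534% of all genes were called higher. FLT1, the other VEGFA receptor on endothelium, had 16, 53 and 35 reads, and the coreceptors NRP1 and NRP2 had log2 fold changes of 0.81 ± 0.32 and -1.07 ± 0.29. Ligand and receptor thus stood on opposite sides of the control in both lines for VEGFA and KDR.

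FST, follistatin, which binds activins, had 11220, 5874 and 6114 reads and a log2 fold change of -0.87 ± 0.22 (adjusted p = 0.0986). The activin receptors ACVR1B, ACVR2A and ACVR2B were between -0.54 and -0.03. ACVR1C, another receptor of this family on the list, had 35, 67 and 55 reads and a log2 fold change of 0.85 ± 0.56. FGFR1, a receptor of FGF21 together with KLB, had 1194, 2246 and 2674 reads and a value of 1.07 ± 0.25 (adjusted p = 0.082). CALCRL, the receptor of ADM2, had 3460, 2773 and 6338 reads, so the lines lay on either side of the control.

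The accessory RAMP genes, which CALCRL needs to bind its ligands, had at most 6 reads in any library. GFRAL and RET, which together form the receptor of GDF15, had at most 23 and 6. For VLDLR, LRPAP1, a chaperone of the receptor family, and MYLIP, which marks the receptor for degradation, had log2 fold changes of 0.49 ± 0.28 and -0.28 ± 0.34. FSTL3, an activin binding protein, was at -0.18 ± 0.40, and DAB1, the adaptor of reelin signalling, had at most 102 reads.

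Relatives of the 8 genes did not move as one group with them. Of 16 on the list, 13 had enough reads, with a median log2 fold change of 0.23, 6 of 13 below 0, and 0 called at 0.01 by edgeR (5 had an unadjusted p under 0.05, against 18.8% of all genes, and DESeq2 called 1, against 2.17% of all genes). The median had no fixed sign, at -0.13 without the first line, -0.0032 without the second and -0.019 with the single bin of most reads. INHBA, the activin A chain, had 50 reads in the control culture, 343 after shRBM15#1 and 592 after shRBM15#2, and a value of 3.23 ± 0.46 (adjusted p = 0.0137). It was thus higher in both lines where INHBE was lower, at levels of at most 11.3 CPM.

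LRP8, the other reelin receptor, had a log2 fold change of -0.63 ± 0.22. VEGFB had -0.18 ± 0.32 and TGFB1 -0.29 ± 0.24. ADM, adrenomedullin, had 106, 95 and 361 reads and was higher in the second line only. None of these passed an adjusted p of 0.05.

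The integrated stress response list of 25 genes, all with enough reads, had a median log2 fold change of -1.48, with 21 of 25 below 0. At 0.01, 7 fell and 0 rose, against 0.277% and 0.0683% of all genes. TRIB3, a pseudokinase induced by ATF4, fell most, at -3.37 ± 0.23 with 10299, 835 and 1129 reads. The next were NUPR1 at -2.41 ± 0.28, PHGDH at -2.37 ± 0.25, DDIT4 at -2.26 ± 0.22 and SESN2 at -2.03 ± 0.26, which act in cell stress, serine synthesis and the control of mTORC1.

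By point estimate INHBE lay below every gene of the list, and VEGFA, GDF15, ADM2 and VLDLR lay below all of it but TRIB3, without a test. ATF4 itself had 16325, 7596 and 8229 reads and a value of -1.01 ± 0.22 (adjusted p = 0.0592). The 4 eIF2α kinases and EIF2S1, which encodes eIF2α, lay between -0.34 and 0.28, and none had an adjusted p under 0.05. Genes of this list had been seen to fall in earlier work on these libraries, so the count is not independent support for the choice of the 8.

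**Figure D5:**
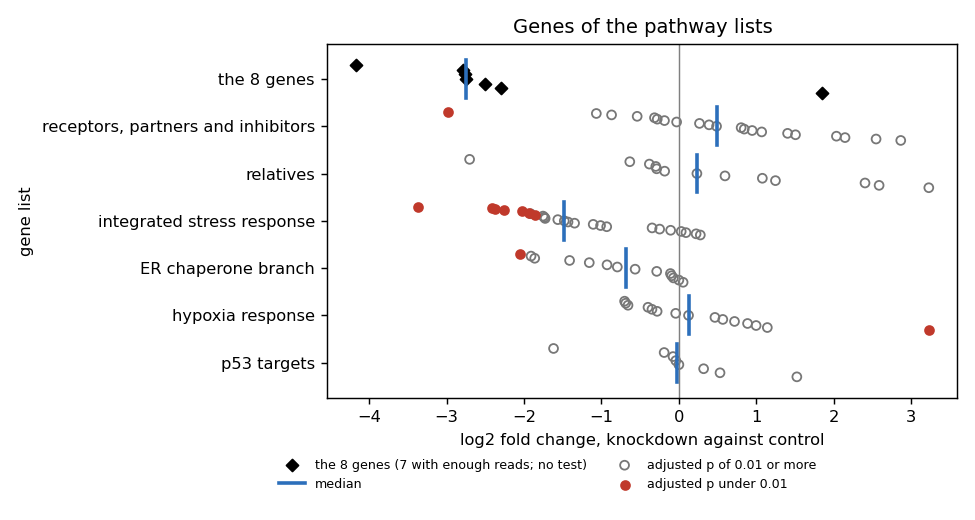
Log2 fold change of the genes tested in each list, knockdown against control, 1 point a gene, with filled red points for an adjusted p under 0.01 (edgeR), open points for the rest, black diamonds for the 8 genes and blue bars for medians. The medians run from -2.75 for the 8 genes and -1.48 for the integrated stress response to 0.49 for receptors, partners and inhibitors.

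Other stress programmes were compared because some of the 8 genes answer to them. The endoplasmic reticulum chaperone list had a median of -0.68, with 12 of 14 genes below 0. At 0.01 edgeR called 1 of them, against 0.346% of all genes, and DESeq2 called 4, against 2.17%. The gene called by edgeR was SEL1L, a subunit of the degradation complex, which fell by 2.05 ± 0.26 on the log2 scale. At an adjusted p under 0.05 edgeR called 4 lower, against 1.2% of all genes. They include HERPUD1 at -1.91 ± 0.26, ERN1 at -1.86 ± 0.26 and EDEM1 at -1.41 ± 0.24. HSPA5, the main chaperone BiP, was at -0.56 ± 0.22 and CALR at 0.00 ± 0.28.

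The hypoxia list had a median of 0.13, with 7 of 15 genes below 0. EGLN3, a prolyl hydroxylase of the oxygen response, rose, from 261 reads to 2471 and 2279. Its log2 fold change was 3.23 ± 0.32 (adjusted p = 0.00324, edgeR). It was the only gene of the list that edgeR called at 0.01, where 0.346% of all genes were called. DESeq2 called 2 in all, against 2.17% of all genes. SLC2A1, the glucose transporter GLUT1, was at 1.14 ± 0.24 (adjusted p = 0.059). VEGFA, a usual member of this response, was thus lower in the libraries where EGLN3 was higher.

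The p53 target list, of which GDF15 is a usual companion, had a median of -0.02, with 4 of 8 below 0. At 0.01 edgeR called 0, against 0.346% of all genes, and DESeq2 called 1, against 2.17%. By edgeR 2 had an unadjusted p under 0.05, against 18.8% of all genes. CDKN1A, the p21 gene, had 302, 384 and 1385 reads, higher in the second line, whereas GDF15 was at 2.96 and 2.79 CPM in the lines. BBC3, the PUMA gene, was at -1.62 ± 0.28 (adjusted p = 0.0295).

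Genes whose values were closest to those of INHBE and VEGFA were found by the Euclidean distance over the log2 fold changes of the 2 lines, among genes with at least 300 summed reads and leaving out the 8. Among the nearest to INHBE were OSCAR, an immune receptor gene, with 841, 36 and 42 reads at a distance of 0.34, and the homeobox gene HOXB9 with 1795, 98 and 160 reads at 0.56. Nearest to VEGFA were MAP1B, a microtubule-associated protein gene, with 3134, 353 and 547 reads at 0.091, LINC02458 at 0.12 and TSC22D3, a glucocorticoid-induced gene, at 0.21. Likeness over 2 lines with a shared control is a description only.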

How the data were processed

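RNA-seq covered 1 control and 2 RBM15 knockdown libraries of MEG-01 cells. The authors aligned the reads to GRCh37 (hg19) with STAR and deposited raw counts of reads per exon bin. The submitters' processing notes also name CASAVA 1.8.4, Picard 1.126, HTSeq 0.6.0, DESeq, bedtools 2.17.0 and R 3.1.1. Not given in the sources used here was the program that counted reads per bin. Bin positions came from the authors' deposited DEXSeq table, whose fold changes and p-values were not used, and site positions from their RIP-seq list, with counts, fold changes and FDR values also unused.

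Bin counts were summed per gene and tested in edgeR 4.0.16 (R 4.3.3) by the quasi-likelihood test after TMM scaling, on the 24887 genes that had at least 30 summed reads, with Benjamini-Hochberg adjustment and 1 residual degree of freedom per gene before moderation. Relative bin usage was tested with diffSpliceDGE. A read that spans several bins can count in each, so the reads given for a gene can exceed the number sequenced. Symbols matched 54481 of 62238 genes by Ensembl identifier. Lines naming no gene held between 23.2% and 32.0% of all counts and were left out. The procedure was tested on simulated data with a fixed spread not taken from these libraries, which does not give the error rate of the calls here. The cultures of a group are separate lines, 1 library each.

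The members and the gene lists were chosen with earlier results of these data known. Genes were named when called (up to 5 in each direction) or when a receptor or relative had at least 100 reads in a library. Other list genes named, and the neighbours, were picked after their values were seen. The alternatives were other scaling, other minimum counts, DESeq2 1.42.0, other bin sets, each knockdown line alone and another limit. A few genes that these rules would name are not reported here.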

Additional observations from a re-analysis of the deposited data

How the results depend on the processing

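The median log2 fold change of the 7 genes tested stayed between -2.55 and -2.89 with either knockdown line left out (fold changes only, since 1 library a side gives no test). The differences of all 7 genes kept their direction in 56 of 56 alternatives, 48 of them within the spread between the lines. Leaving out a line gives the other line's own value, so those alternatives lie within the spread by construction. All alternatives used the libraries on which the genes were chosen, so the kept direction is a description only. With size factors edgeR called 191 genes, 19 of them on the lists, against 86 and 10. With no filter it called 801 and 27, but there the median of all genes rose to 0.44. DESeq2 called 539 and 25. An adjusted p under 0.05 gave 432 genes. With at least 300 reads, or with the single bin of most reads per gene, edgeR called 0 genes, 0 of the 7 and 0 on the lists at 0.01, although 238 and 119 genes passed 0.05, 2938 and 3494 had an unadjusted p under 0.05, and 6 and 5 of the 7 passed 0.05. With no minimum for bins, 4 bins of these genes passed the authors' limits, 3 of GDF15 and 1 of VEGFA, each with at most 27 summed reads. The median control level of the 8 genes was 7.36 RPKM over all bins and 7.95 without overlapping bins. The median of the receptor list changed sign to -0.041 with at least 300 reads, and that of the relatives was -0.13 and -0.0032 with a line left out. The cause of these changes was not tested. No paired analysis was possible because the control carries no hairpin number. With 1 control, the depth of STC1, FGF21 and the VLDLR exons limits what can be seen.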
